A study of Homo sapiens with 6 samples.

Results

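The genes described here are 38 components of the unfolded protein response and of the secretory apparatus of the endoplasmic reticulum (ER): chaperones, protein isomerases, ER-associated degradation factors, stress sensors and their transcription factors, targets of the PERK and ATF4 branch, and translocation and antibody secretion factors. Each was represented by the brightest of its probe sets that the array annotation assigns to that gene alone, which gave values for 36 of the 38 among 19775 genes measured. SYVN1 and TXNDC5 were not measured, because their probe sets are annotated to several genes. The cells were BL-2, an established Burkitt lymphoma line, exposed to lipopolysaccharide (LPS) for 6 h or left without treatment, with 3 arrays per group. A time is given for the LPS samples only, so the culture time of the controls is not known. LPS is an outer membrane component of Gram-negative bacteria. Both groups come from this 1 cell line, and no other agent or genetic change is named. The labels do not say whether the samples of a group came from separate cultures, and each p-value covers only the spread among these arrays, which may be technical.

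In the unfolded protein response, the ER membrane sensors IRE1 (encoded by ERN1), PERK (encoded by EIF2AK3) and ATF6 detect misfolded protein in the ER. IRE1 splices the XBP1 transcript, PERK slows translation while favouring that of ATF4, and ATF6 is cleaved in the Golgi to release a transcription factor. Together they raise chaperone, degradation and amino acid supply genes, and B cells that become plasma cells enlarge the same machinery before they secrete antibody. Splicing and cleavage are not read by these arrays, which report a probe set level on a log2 scale.

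Spiked-in hybridisation controls split the arrays into 2 sets, with LPS arrays 1 and 2 and control array 1 in set A, and LPS array 3 and control arrays 2 and 3 in set B. Within-set differences below therefore rest on a single control array in set A and a single LPS array in set B. All 7 measured B cell markers lay above the array medians, which ran from 6.42 to 6.47. The mean of 6 monocyte and macrophage markers was between 6.26 and 6.31 on LPS arrays and between 6.27 and 6.29 on control arrays. CD79A (-0.38, limma adjusted p = 0.133) and CD22 (-0.20, adjusted p = 0.554) had all LPS arrays below all controls, and 1 B cell marker fell in a fit blocked on array set. Of 5 Burkitt and germinal centre B cell markers only MYBL1 fell by the adjusted test with group alone (-0.56, adjusted p = 0.0288, against 0.207% of all genes called lower). MME, CD38 and BCL6 had separate groups, at -0.31 to -0.33, and TCL1A overlapped, at -0.03. Over the 5 these gave a mean of 9.94 to 10.11 on LPS arrays and 10.32 to 10.38 on control arrays. The mean of 7 plasma cell markers was 8.70 to 8.75 on LPS arrays and 8.60 to 8.66 on control arrays, with 4 of the 7 above 0 and 3 below. IRF4 had the widest difference of these, at 0.58 (adjusted p = 0.0852), and the others lay between -0.13 and 0.15. In the fit blocked on array set 3 of the 5 Burkitt and germinal centre markers fell and 1 of the 7 plasma cell markers rose. In that fit 2.02% of all genes passed. The part of these markers in the results was not tested.

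Mean levels of 8 of 9 ER chaperones and of a few folding factors were higher on LPS arrays, by 1.36-fold at most, while differences of the PERK and ATF4 targets and the translocation genes lay between -0.08 and 0.10; none passed the adjusted test in the fit with group alone. HSPA5, HSP90B1, PDIA6 and MANF had the largest differences, between 0.34 and 0.45 on the log2 scale. By limma, with group as the only term and Benjamini-Hochberg adjustment over all probe sets, 0 of the 36 members passed the threshold of 0.05, against 0.389% of all genes. At an unadjusted p under 0.05 there were 13 members, or 36.1% of them, against 9.56% of all genes. Of these 12 were higher, against 4.97% of all genes, and 1 was lower, against 4.59% of all genes. In a fit blocked on array set, chosen after the sets had been seen, these 4 genes passed and rose, and 2.02% of all genes passed. Other fits gave 3 members with the replicate number as a block (1.37% of all genes), 2 after quantile normalisation (0.845%), 1 without the intensity trend (0.617%) and 1 with array weights (0.824%). None passed after median centring (0.475%), among probe sets above the median level (0.593%) or with the mean over the probe sets of a gene (0.435%). Dropping probe sets whose names end in _x_at or _s_at also gave 0 (0.345%), and left a value for only 6 of the 9 ER chaperones. Leaving out control 1 gave 3 (1.02%), while leaving out LPS 1 (0.137%), LPS 2 (0.0303%), LPS 3 (0.314%), control 2 (0.121%) or control 3 (0.0455%) gave 0. On RNA from whole cultures, more transcript per cell and a larger share of cells with it cannot be told apart.

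Over the members the median difference was 0.07 on the log2 scale, with 26 above 0 and 10 below, beside a median of 0.0016 over all genes. Their mean level was 9.62, 9.56 and 9.64 on LPS arrays 1 to 3, against 9.53, 9.47 and 9.49 on control arrays 1 to 3. All LPS arrays thus lay above all control arrays. The mean over all genes was 7.48, 7.47 and 7.45 on the LPS arrays, against 7.47, 7.45 and 7.46 on the control arrays. In 15 members the groups did not overlap, 12 with LPS above and 3 with LPS below, or 41.7%, against 15.7% of all genes. All 36 members were brighter than the median probe set, and among the 12654 genes brighter than it 12.4% had an unadjusted p under 0.05 and 18.6% had groups that did not overlap. The plot of each array's deviation from the control mean shows the shift in the chaperone block, with control 1 the nearest of the controls to the LPS arrays there.

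**Figure D1:**
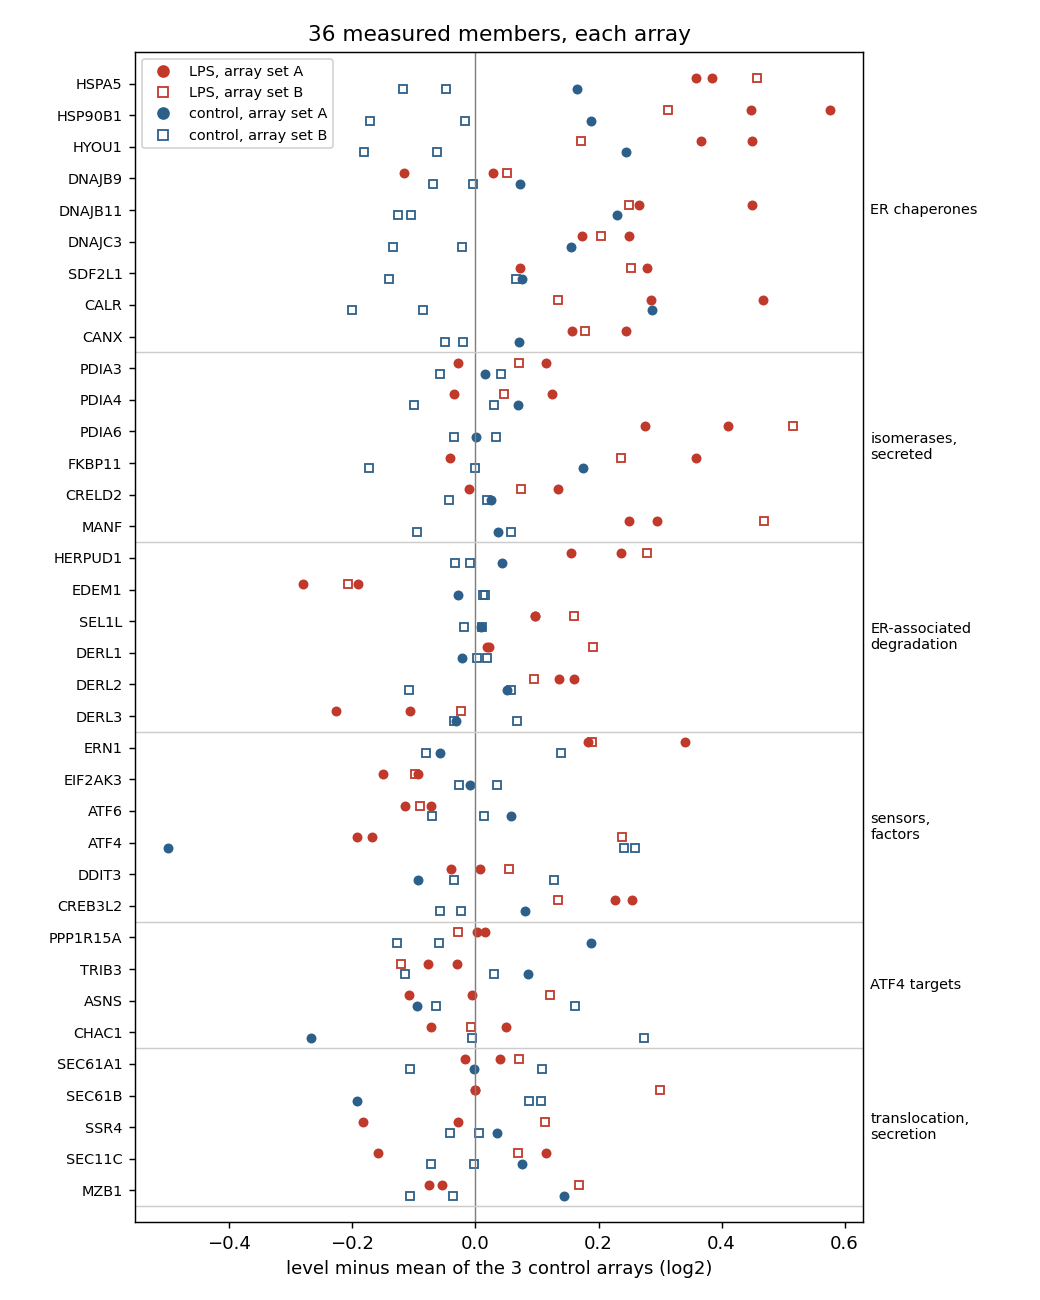
Level of the 36 measured members on each array minus the mean of the 3 control arrays (x axis, log2), with 1 gene per row, LPS points above control points, filled circles for array set A and open squares for array set B. HSPA5, HSP90B1, PDIA6 and MANF have all LPS points to the right of all control points, EDEM1 has them to the left, and ATF4 splits by array set.

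The promoters of the 4 genes that passed in the fit blocked on array set are shown because their start regions can be read for the ER stress response element (ERSE), the site bound by ATF6 with NF-Y and by XBP1. Each sequence, from RefSeq on GRCh38.p14, is 300 bases around the gene's start, written 5′ to 3′ on the gene's strand, with capitals marking a match to a searched motif. The windows are chr9:125241294-125241593, minus strand, for HSPA5, chr12:103930160-103930459, plus strand, for HSP90B1, chr2:10812736-10813035, minus strand, for PDIA6, and chr3:51385041-51385340, plus strand, for MANF. PDIA6 has more than 1 RefSeq window, and the one with a match is shown.
HSPA5: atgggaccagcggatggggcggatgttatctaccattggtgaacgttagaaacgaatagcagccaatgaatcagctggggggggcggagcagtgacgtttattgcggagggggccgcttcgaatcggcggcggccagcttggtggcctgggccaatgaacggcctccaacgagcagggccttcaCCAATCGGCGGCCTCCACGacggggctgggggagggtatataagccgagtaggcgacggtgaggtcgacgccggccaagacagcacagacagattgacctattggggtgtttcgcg
HSP90B1: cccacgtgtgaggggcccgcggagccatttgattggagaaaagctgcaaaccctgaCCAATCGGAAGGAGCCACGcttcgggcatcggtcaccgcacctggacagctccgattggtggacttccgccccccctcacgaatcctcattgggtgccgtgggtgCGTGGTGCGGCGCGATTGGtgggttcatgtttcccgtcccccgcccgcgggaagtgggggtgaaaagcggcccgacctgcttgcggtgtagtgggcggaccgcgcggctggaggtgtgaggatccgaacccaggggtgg
PDIA6: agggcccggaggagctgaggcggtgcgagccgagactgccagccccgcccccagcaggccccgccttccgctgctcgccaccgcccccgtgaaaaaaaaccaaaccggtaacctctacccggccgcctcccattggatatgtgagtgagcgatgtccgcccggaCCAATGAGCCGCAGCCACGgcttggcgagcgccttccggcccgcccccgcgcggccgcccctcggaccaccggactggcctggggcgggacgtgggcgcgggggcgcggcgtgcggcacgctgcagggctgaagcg
MANF: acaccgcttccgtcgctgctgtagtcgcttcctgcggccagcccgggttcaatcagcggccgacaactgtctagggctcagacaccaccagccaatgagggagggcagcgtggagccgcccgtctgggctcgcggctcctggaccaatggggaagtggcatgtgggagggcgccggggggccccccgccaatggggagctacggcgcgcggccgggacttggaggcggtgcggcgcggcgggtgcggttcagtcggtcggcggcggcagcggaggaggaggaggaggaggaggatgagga

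The search covered both strands for ERSE (CCAAT, then 9 bases of any kind, then CCACG), the related ERSE-II (ATTGG, 1 base of any kind, CCACG), the core of the XBP1-type response element (TGACGTGG) and the core of the C/EBP-ATF element bound by ATF4 (TGATGNAA). ERSE and ERSE-II share the CCACG end, whose reverse complement also lies in the XBP1-type core, so matches can overlap. HSPA5 has ERSE from -66 to -48 relative to the start, where -1 is the last base before it, and PDIA6 has it from -86 to -68. HSP90B1 has 1 match on each strand, from -194 to -176 and from -89 to -71. MANF has no match to these 4 motifs in its window, which says only that these letters are not there.

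ERSE was found in 6 of the 35 members with a window, or 17.1%, against 0.0916% of the 27305 genes of the table. ERSE-II was found in 3 members, or 8.57%, against 0.0696% of genes. The members were listed as genes of the response that these elements serve. The excess therefore describes the list and is not a result of these arrays. The member sites outside the windows printed above follow, with the fixed letters in capitals and the spacer in lower case; they are shown to let the 9 carriers among the members be compared. The sites of CALR, CRELD2, HYOU1 and SDF2L1 lie on the opposite strand and are written in the motif's own direction. They are on chromosome 19 for CALR, 5 for CANX, 22 for CRELD2 and SDF2L1, 11 for HYOU1 and 16 for HERPUD1. HYOU1 holds its site at both of 2 positions, from -185 to -175 and from -79 to -69, and the first overlaps an XBP1-type core from -188 to -181.
CALR ERSE: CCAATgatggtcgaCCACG
CANX ERSE: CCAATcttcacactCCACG
CRELD2 ERSE: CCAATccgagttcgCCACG
HYOU1 ERSE-II: ATTGGaCCACG
SDF2L1 ERSE-II: ATTGGtCCACG
HERPUD1 ERSE-II: ATTGGgCCACG

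The 9 members with ERSE or ERSE-II all had a difference above 0, with a median of 0.29 and a range from 0.07 for CRELD2 to 0.45 for HSP90B1. The 24 measured members with a window and no such match had a median of 0.01 and a range from -0.23 to 0.34, with 15 above 0. Of the carriers CALR, CANX, HSP90B1, HSPA5, HYOU1 and SDF2L1 are also in the ER chaperone list. The split by motif thus repeats much of the split by role and is no separate support for it. Outside the members, 12 measured genes had ERSE in their window, and their median was -0.05 with 5 above 0. Another 16 had ERSE-II, with a median of 0.02 and 11 above 0. XBP1, itself a carrier of ERSE, was at -0.13. Several of the carriers outside the members lay near or below the array medians of 6.42 to 6.47, such as NLRP4 (6.12), GLRA2 (6.30), ZNF17 (6.34), XBP1 (6.40) and PLS3 (5.84). EIF2A and SERP1 were bright, at 11.09 and 11.84, with differences of -0.06 and -0.12. The 9 member carriers had mean levels from 8.80 for HYOU1 to 11.82 for HSPA5. The element was thus found among genes on both sides of 0 outside the members, some of them too dim for their sign to carry weight. The XBP1-type core was found in HYOU1, SSR4 and TXNDC5, or 8.57% of members, against 0.927% of genes. HYOU1 was at 0.33 and SSR4 at -0.03, and TXNDC5 was not measured. The ATF4-type core was found in ASNS, CHAC1, CREB3L2 and HERPUD1, or 11.4% of members, against 4.46% of genes, with differences of 0.0026, -0.01, 0.21 and 0.22. A match is a description of the sequence and not a measured binding site.

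**Figure D2:**
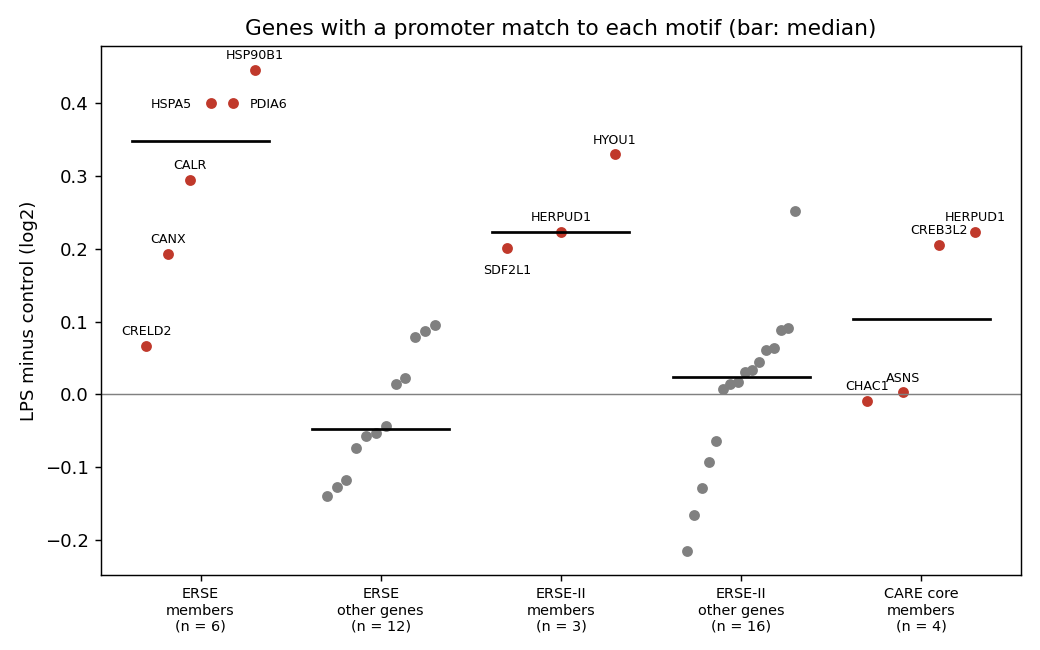
LPS minus control (y axis, log2) for each measured gene with a promoter match to ERSE, ERSE-II or the ATF4-type core (CARE core), with members in red and named, other genes in grey (for ERSE and ERSE-II), and a bar at the median. The members with ERSE lie between 0.07 and 0.45, and the other genes with ERSE between -0.14 and 0.10.

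The role lists were drawn with earlier results of these data known, so contrasts between them are descriptions. Among the 9 ER chaperones and cofactors, 8 had a difference above 0, with a median of 0.29, and 0 passed the adjusted test. An unadjusted p under 0.05 was found for 7 of them, or 77.8%, against 9.56% of all genes and 12.4% of those brighter than the median probe set. Their mean level was 9.89, 9.79 and 9.78 on LPS arrays 1 to 3, against 9.72, 9.44 and 9.51 on control arrays 1 to 3. Control 1 was the highest control, and the median over the 9 genes was 0.13 within array set A and 0.29 within array set B. Blocked on array set it was 0.19. Without control 1 the median was 0.44.

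HSPA5, the central Hsp70 chaperone of the ER lumen (BiP) that also holds the sensors inactive, had levels of 12.00, 11.97 and 12.07 on LPS arrays, against 11.78, 11.50 and 11.57 on control arrays. The groups did not overlap, and control 1 was the nearest to the LPS values. The difference was 0.40 (SE 0.0996, 95% interval 0.19 to 0.61, limma adjusted p = 0.158), or 1.32-fold. Set A alone gave 0.21 and set B alone 0.54, and the difference was 0.37 in the blocked fit (adjusted p = 0.00638). Its dimmer probe set gave 0.19 (adjusted p = 0.536).

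HSP90B1, the ER member of the Hsp90 family (GRP94), which folds Toll-like receptors and integrins, had 9.93, 10.06 and 9.79 on LPS arrays, against 9.67, 9.31 and 9.46 on control arrays. All LPS values lay above all controls. The difference was 0.45 (SE 0.107, 95% interval 0.22 to 0.68, limma adjusted p = 0.142), or 1.36-fold, with 0.32 within set A and 0.41 within set B. Blocked on array set it was 0.37 (adjusted p = 0.0141). The dim second probe set was at -0.10 (adjusted p = 0.906). Both probe sets carry the suffix for possible cross-hybridisation, so HSP90B1 has no value without such probe sets.

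HYOU1, a large Hsp110-type chaperone that exchanges nucleotide on BiP, had 9.08, 9.00 and 8.80 on LPS arrays, against 8.88, 8.45 and 8.57 on control arrays. LPS array 3 fell below control array 1, so the groups overlapped. Its difference was 0.33 (limma adjusted p = 0.391), with 0.16 within set A and 0.29 within set B. Without control 1 it was 0.45 (adjusted p = 0.0499), and in the blocked fit 0.23 (adjusted p = 0.205). DNAJB11, a J-domain cochaperone of BiP, had 9.94, 9.75 and 9.74 on LPS arrays, against 9.72, 9.38 and 9.36 on control arrays. Its groups were separate but nearly touching at control 1, and the difference was 0.32 (limma adjusted p = 0.388), with 0.13 within set A and 0.37 within set B.

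DNAJC3, a cochaperone known as p58IPK, had 8.33, 8.25 and 8.29 on LPS arrays, against 8.24, 7.95 and 8.06 on control arrays. The groups did not overlap, and the difference was 0.21 (limma adjusted p = 0.539). All 4 of its probe sets lay above 0, between 0.13 and 0.22. SDF2L1, which sits in a complex with BiP and DNAJB11, had 9.01, 8.80 and 8.98 on LPS arrays, against 8.81, 8.59 and 8.80 on control arrays. Its groups overlapped at LPS array 2, and the difference was 0.20 (limma adjusted p = 0.614). DNAJB9 (ERdj4), a cochaperone that is a classical XBP1 target, had 8.50, 8.36 and 8.53 on LPS arrays, against 8.55, 8.47 and 8.41 on control arrays. Its groups overlapped throughout, and the difference was -0.01 (95% interval -0.19 to 0.16), -0.12 within set A and 0.09 within set B.

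The lectin chaperones calreticulin and calnexin hold glycoproteins during folding. CALR had 10.46, 10.28 and 10.12 on LPS arrays, against 10.28, 9.79 and 9.91 on control arrays, and control 1 lay among the LPS values. The difference was 0.29 (limma adjusted p = 0.571), with 0.09 within set A and 0.28 within set B. One dimmer probe set stood at 0.70 (adjusted p = 0.412) and another at 0.50 (adjusted p = 0.617). In the fit blocked on array set the first passed (adjusted p = 0.00834), which the brightest did not (adjusted p = 0.412). CANX had a difference of 0.19 (95% interval -0.00040 to 0.39), with LPS values of 11.67 to 11.76 above control values of 11.47 to 11.59, and 3 of its 4 other probe sets lay between 0.22 and 0.26.

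**Figure D3:**
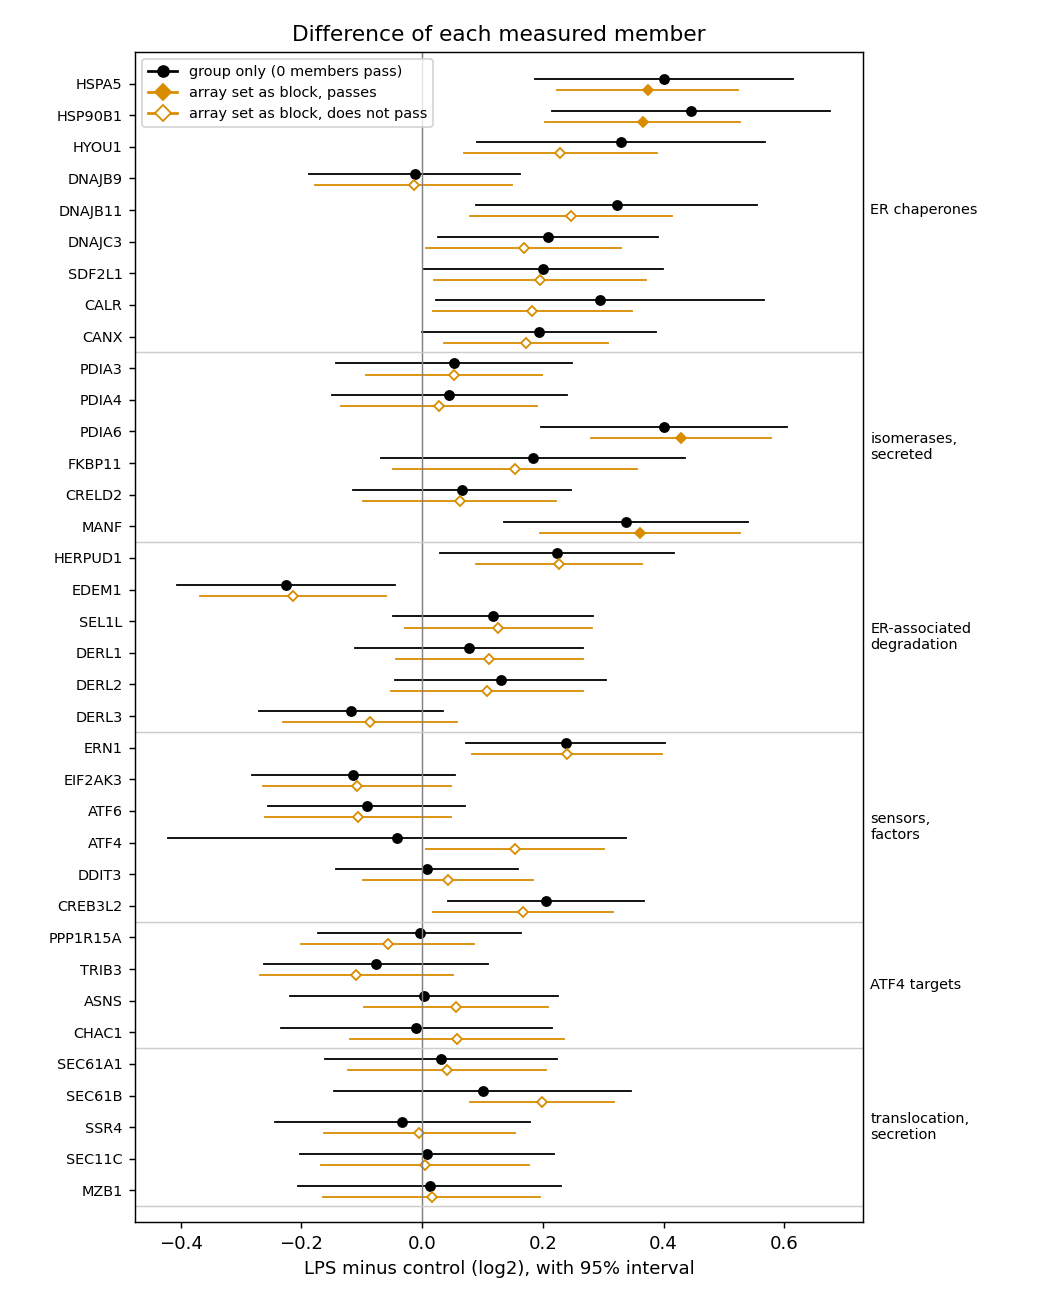
LPS minus control (x axis, log2) with its 95% interval for each measured member, by the fit with group as the only term (black circles) and with array set as a block (orange diamonds, filled where the adjusted p is under 0.05). HSPA5, HSP90B1, PDIA6 and MANF are the filled diamonds, between 0.36 and 0.43, and the black circles of the ATF4 targets and translocation genes lie between -0.08 and 0.10. The orange diamond of SEC61B is at 0.20, with an interval of 0.08 to 0.32.

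Of the 6 measured isomerases and secreted stress proteins, all had a difference above 0, with a median of 0.13. An unadjusted p under 0.05 was found for 2, or 33.3%, against 9.56% of all genes. PDIA6, a disulfide isomerase that also acts on the sensor IRE1, had 11.38, 11.24 and 11.48 on LPS arrays, against 10.97, 10.93 and 11.00 on control arrays. The lowest LPS value was well above the highest control, and control 1 stood with the other controls. The difference was 0.40 (SE 0.0949, 95% interval 0.20 to 0.60, limma adjusted p = 0.133), or 1.32-fold, 0.34 within set A and 0.52 within set B. Blocked on array set it was 0.43 (adjusted p = 0.00156), and it was also past the threshold after quantile normalisation (0.36, adjusted p = 0.0227). The other 3 PDIA6 probe sets gave 0.24 to 0.30, each with groups that did not overlap, and adjusted p from 0.346 to 0.491.

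MANF, a small protein of the ER that is secreted under stress, had 9.98, 9.94 and 10.16 on LPS arrays, against 9.72, 9.59 and 9.74 on control arrays. All LPS values lay above all controls. The difference was 0.34 (SE 0.0938, 95% interval 0.14 to 0.54, limma adjusted p = 0.236), or 1.26-fold, with 0.23 within set A and 0.49 within set B. Blocked on array set it was 0.36 (adjusted p = 0.0194).

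The other isomerases stood closer to 0. PDIA3 (ERp57), which works with the lectin chaperones and in MHC class I loading, had a difference of 0.05 (95% interval -0.14 to 0.25), and its 3 probe sets gave 0.03 to 0.06. PDIA4 (ERp72), another disulfide isomerase, had 0.04 (95% interval -0.15 to 0.24), with 0.06 by its other probe set. CRELD2, a secreted stress protein, had 0.07 (95% interval -0.11 to 0.25), and FKBP11, a prolyl isomerase abundant in secretory cells, had 0.18 (95% interval -0.07 to 0.44). In all 4 the LPS and control values overlapped.

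**Figure D4:**
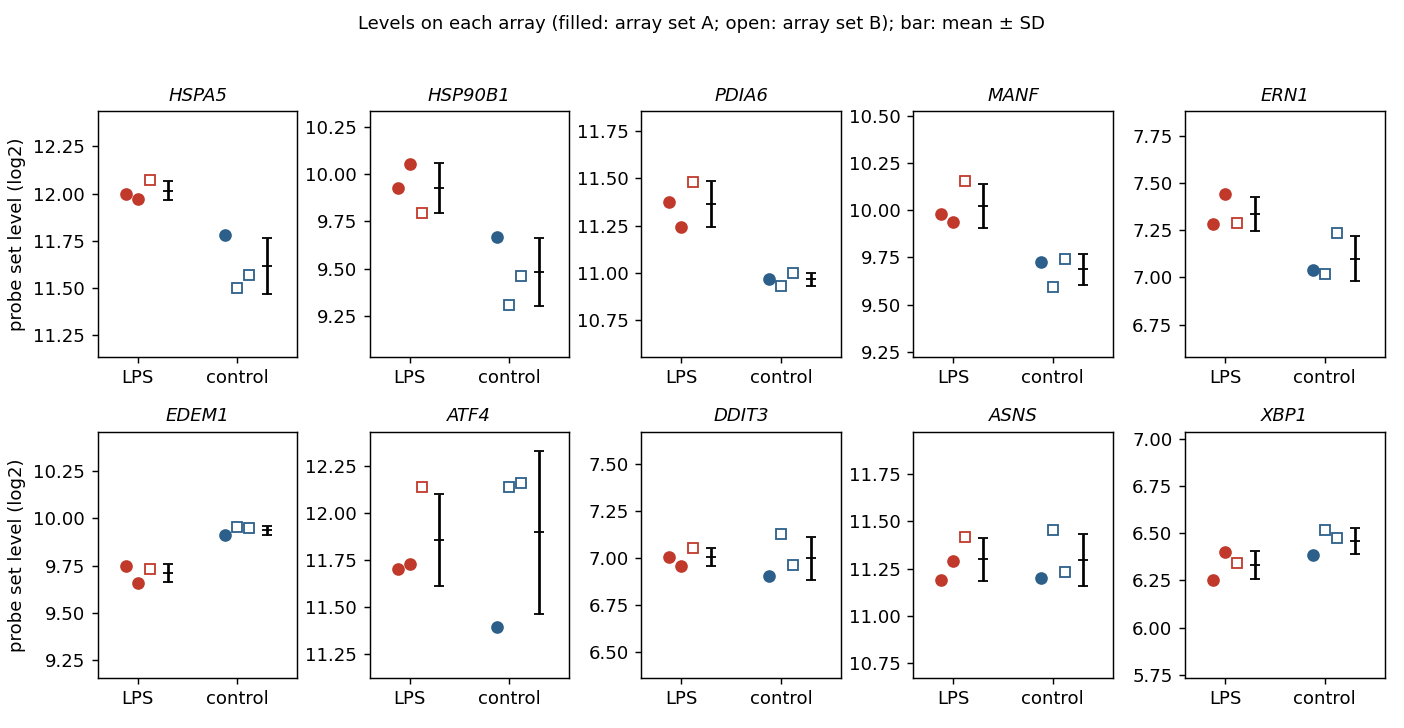
Probe set level (y axis, log2, each panel spanning the same range of log2 units) of 9 members and of XBP1 on the LPS arrays (left in each panel) and control arrays (right), with filled circles for array set A, open squares for array set B and a bar for the mean ± SD of 3 arrays. HSPA5, HSP90B1, PDIA6, MANF and ERN1 have all LPS values above all controls, and EDEM1 has them below. ATF4 is between 12.13 and 12.15 on set B arrays and between 11.40 and 11.73 on set A arrays.

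Among 6 measured ER-associated degradation genes, 4 lay above 0 and 2 below, and 0 passed the adjusted test. In each direction 1 had an unadjusted p under 0.05, against 4.97% of all genes higher and 4.59% lower. HERPUD1, which organises the degradation complex at the ER membrane, had 11.80, 11.72 and 11.85 on LPS arrays, against 11.61, 11.56 and 11.53 on control arrays. The groups did not overlap, and the difference was 0.22 (SE 0.0900, limma adjusted p = 0.529), 0.15 within set A and 0.30 within set B. Its other probe set, much dimmer, gave 0.01. EDEM1, a mannosidase-like protein that passes misfolded glycoproteins to degradation and is a classical XBP1 target, had 9.75, 9.66 and 9.73 on LPS arrays, against 9.91, 9.95 and 9.95 on control arrays. Here the LPS values lay below all controls. The difference was -0.23 (SE 0.0841, 95% interval -0.41 to -0.05, limma adjusted p = 0.476), with -0.21 within set A and -0.22 within set B.

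SEL1L, the scaffold of the HRD1 ubiquitin ligase, had a difference of 0.12 with LPS values of 8.86 to 8.92 above control values of 8.74 to 8.77. The derlins form part of the retrotranslocation channel. DERL2 was at 0.13, with separate groups, DERL1 at 0.08 and DERL3 at -0.12, with overlapping groups. The 3 probe sets of DERL3 disagreed in sign, with the dimmer ones at 0.12 and 0.05, and a dimmer DERL1 probe set was at 0.27 (adjusted p = 0.632). For the brightest probe sets, adjusted p ran from 0.736 to 0.893 over these 4 genes.

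The sensors and factors divided into both directions, with 3 of 6 above 0 and a median of -0.02. ERN1, which encodes IRE1, had 7.28, 7.44 and 7.29 on LPS arrays, against 7.04, 7.02 and 7.24 on control arrays. Control 3 was the control nearest to the LPS values, and the groups did not overlap. The difference was 0.24 (SE 0.0769, 95% interval 0.07 to 0.40, limma adjusted p = 0.355), 0.32 for set A and 0.16 for set B, and the dimmer probe sets gave 0.10 and 0.06. EIF2AK3, which encodes PERK, had 8.92, 8.86 and 8.91 on LPS arrays, against 9.00, 8.99 and 9.05 on control arrays. Its LPS values lay below all controls, by a difference of -0.11 (95% interval -0.28 to 0.05, adjusted p = 0.782). ATF6 had 8.40, 8.36 and 8.38 on LPS arrays, against 8.53, 8.48 and 8.40 on control arrays. LPS array 1 and control array 3 were equal at 2 decimals, and the difference was -0.09 (95% interval -0.26 to 0.07, adjusted p = 0.83).

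ATF4, the transcription factor of the integrated stress response, had 11.70, 11.73 and 12.13 on LPS arrays, against 11.40, 12.14 and 12.15 on control arrays. All set B arrays lay above all set A arrays, and within set A both LPS arrays lay above the control array. With LPS in the fit set B exceeded set A by 0.58 (adjusted p = 1.06e-05), and the LPS difference was -0.04 (95% interval -0.42 to 0.34), with 0.32 within set A and -0.01 within set B. In the blocked fit the difference was 0.15 (95% interval 0.0060 to 0.30, adjusted p = 0.464). The sets also differed in SEC61B (0.30 higher in set B, adjusted p = 0.00226), CALR (-0.34, adjusted p = 0.0126) and HYOU1 (-0.30, adjusted p = 0.0231). With ATF4 these made up 11.1% of the 36 members, against 4.47% of all genes that passed that test. DDIT3, the stress factor CHOP that lies downstream of ATF4, had 7.01, 6.96 and 7.05 on LPS arrays, against 6.91, 7.13 and 6.96 on control arrays. Its groups overlapped, and the difference was 0.01 (95% interval -0.14 to 0.16). CREB3L2, a membrane-bound factor related to ATF6 that is processed in the same way, had 8.17, 8.20 and 8.08 on LPS arrays, against 8.02, 7.88 and 7.92 on control arrays. Its groups did not overlap, and the difference was 0.21 (limma adjusted p = 0.469), with 0.05 and 0.0043 by its dimmer probe sets.

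The 4 targets of the PERK and ATF4 branch had a median of -0.0068, with 0 at an unadjusted p under 0.05. ASNS, the asparagine synthetase, had 11.19, 11.29 and 11.42 on LPS arrays, against 11.20, 11.46 and 11.23 on control arrays, with overlapping groups and a difference of 0.0026 (95% interval -0.22 to 0.22). PPP1R15A (GADD34), which reverses the translation block, was at -0.0040, and CHAC1, which degrades glutathione, at -0.01. TRIB3, a pseudokinase that restrains ATF4, was at -0.08 (95% interval -0.26 to 0.11). The values of all 4 overlapped between the groups, and their 95% intervals reached no further than -0.26 and 0.22.

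The 5 translocation and secretion genes had a median of 0.01 and 0 at an unadjusted p under 0.05. SEC61B, a subunit of the translocation channel, had 12.53, 12.53 and 12.83 on LPS arrays, against 12.33, 12.63 and 12.61 on control arrays. The highest and lowest values stood in opposite groups and in opposite array sets, and the difference was 0.10 (95% interval -0.15 to 0.35), 0.19 within set A and 0.20 within set B. Blocked on array set it was 0.20 (95% interval 0.08 to 0.32, adjusted p = 0.102), larger than in the fit with group alone. MZB1, the plasma cell and marginal zone B cell cochaperone that helps assemble IgM, had 9.85, 9.87 and 10.09 on LPS arrays, against 10.07, 9.89 and 9.82 on control arrays. These overlapped fully, the difference was 0.01 (95% interval -0.21 to 0.23), and the other MZB1 probe set gave -0.0047. SEC61A1, the channel's pore subunit, was at 0.03, SSR4, a subunit of the translocon-associated complex, at -0.03, and SEC11C, a catalytic subunit of signal peptidase, at 0.01. The dimmer probe sets of SEC61A1 and SEC11C stood higher, at 0.25 (adjusted p = 0.545) and 0.22 (adjusted p = 0.464), with overlapping groups. The median of these 5 genes was -0.04 after quantile normalisation and -0.02 without LPS array 3 or without control array 2. It was 0.08 with the mean over the probe sets of a gene, 0.06 without LPS array 1 and 0.05 without LPS array 2.

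Together the members have 82 probe sets with 1 gene symbol. Of the 46 that were not the brightest of their gene 0 passed the adjusted test in the fit with group alone, in either direction, while the CALR one named above passed in the blocked fit. Where the brightest probe set gave a difference above 0.3, further probe sets exist for HSPA5, HSP90B1 and PDIA6, and only the dim one of HSP90B1 was below 0. DNAJB11, HYOU1 and MANF each rest on 1 probe set, as do ATF4, DDIT3 and EDEM1.

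**Figure D5:**
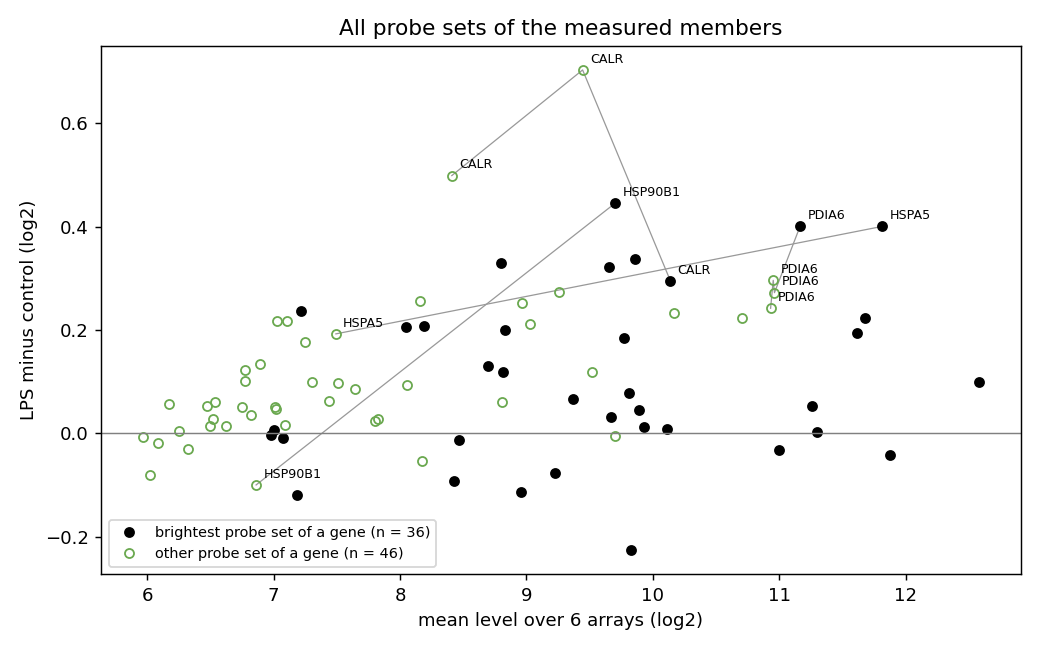
LPS minus control (y axis, log2) against mean level over the 6 arrays (x axis, log2) for all 82 probe sets of the measured members, with filled points for the brightest probe set of a gene and open points for the others. Lines join the probe sets of CALR, HSPA5, HSP90B1 and PDIA6, and the highest point is the CALR probe set at 0.70.

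Of 119 further genes of the same pathways, 115 were measured and 0 passed the adjusted test. Their median difference was 0.04, with 74 above 0 and 41 below. At an unadjusted p under 0.05 there were 10 upward and 5 downward, 13.04% in all. The share was 9.56% of all genes and 12.4% of the genes brighter than the median probe set, so 13.04% is near that background. The 22 measured genes of ER to Golgi transport had a median of 0.10, with 19 above 0, and 2 of them, or 9.09%, had an unadjusted p under 0.05. Among 23 further ATF4 targets 10 lay above 0 and 13 below, and the 15 further folding enzymes had a median of 0.03 with 0 at an unadjusted p under 0.05. XBP1, the factor activated by IRE1, had 6.25, 6.40 and 6.34 on LPS arrays, against 6.38, 6.52 and 6.47 on control arrays, close to the array medians. Its groups overlapped, and the difference was -0.13 (95% interval -0.26 to 0.0019, adjusted p = 0.624).

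The smallest p-values among these further genes were spread over several roles. SELENOS, a selenoprotein of the degradation complex, was at 0.27 (limma adjusted p = 0.318), ARFGAP3, a regulator of transport at the Golgi, at 0.29 (adjusted p = 0.382) and WARS1, a tryptophanyl-tRNA synthetase, at 0.22 (adjusted p = 0.526). In each the LPS values lay above all controls. VLDLR, a lipoprotein receptor, was at -0.25 (adjusted p = 0.137) and PHGDH, the first enzyme of serine synthesis, at -0.26 (adjusted p = 0.5), with LPS values below all controls. DDIT4, an inhibitor of mTORC1 also known as REDD1, had 8.87, 9.43 and 8.74 on LPS arrays, against 8.89, 10.61 and 10.03 on control arrays. Control 1 stood with the LPS arrays, and the difference of -0.83 (adjusted p = 0.467) split into 0.26 for set A and -1.58 for set B. Without control 1 it was -1.31 (adjusted p = 0.00241).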

How the data were processed

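RNA of 3 LPS and 3 control samples of BL-2 cells was labelled with biotin and hybridised to Affymetrix arrays, per the labels' protocols. The deposited table holds 1 value per probe set and array, read here as log2 since the values run from 5.46 to 14.81. The log base is inferred, and the background correction, summary and normalisation are not given in the sources used here. Levels have a floor near the lowest value, and no detection calls were used.

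Without the 62 Affymetrix control probe sets, 54613 were fitted in R 4.3.3 with limma 3.58.1: group as the only term, moderated by empirical Bayes with a trend on level, two-sided, Benjamini-Hochberg adjustment over all of them, threshold 0.05, intervals of 95%. The steps were tested on simulated data with independent noise and no array sets. Added differences of 0.6 and 1 on the log2 scale were called in 79% and 94% of cases. The largest member difference was 0.45, so this does not show how often differences of the members' size would be called. The gene symbols are those of the platform annotation, updated through gene identifiers with RefSeq (GRCh38.p14), which matched 41037 of 41091 probe sets with 1 symbol. A gene is represented by its brightest such probe set. Members, lists, motifs and alternatives, array set as a block included, were chosen with earlier results of these data known. Values in every array are given for members with an unadjusted p under 0.05 and for 12 members picked by role, and, of the further pathway genes, XBP1 and the 6 with the smallest p are named. Other members are given by differences and ranges. The array sets were found from 18 probe sets for added bacterial and phage transcripts, by the widest gap between arrays in their mean, which was 0.22 where the next was 0.081. No pair of arrays shared an identical value (0 in any pair). The number of arrays and the spread between array sets limit the precision. The median standard error was 0.063 in the fit with group alone.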

Additional observations from a re-analysis of the deposited data

How the results depend on the processing

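With group as the only term, 0 of the 36 members, 0 of the further pathway genes and 77 of all genes passed the adjusted test. A replicate block, which uses the replicate number as a block, gave 3 members (HSPA5, HSP90B1, PDIA6), 1 further gene (DDIT4) and 270 genes. The array set block gave 4 members and 400 genes, quantile normalisation 2 members (HSPA5, PDIA6) and 167 genes, no intensity trend 1 member (PDIA6) and 122 genes, and array weights 1 member (HSP90B1) and 163 genes. The cause of these differences was not tested. Leaving out 1 array gave 0 to 3 members, 0 to 1 further genes and 6 to 201 genes, the highest of each without control 1, where HSPA5, HSP90B1 and HYOU1 passed. The 6 genes were left without LPS 2, against 9 without control 3, 24 without control 2, 27 without LPS 1 and 62 without LPS 3. Quantile normalisation left 20 of 36 members above 0, against 26, with a median of 0.03, and turned the calls over all genes to 60 higher and 107 lower, against 36 and 41. The chaperones' median was 0.25 there, and 0.19 to 0.44 over all alternatives. That of the translocation genes was -0.04 there, and -0.04 to 0.08 over all alternatives. It was -0.02 without LPS 3 or control 2, and 0.08 with the mean over the probe sets of a gene.

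The 13 members with an unadjusted p under 0.05 kept their sign under all their alternatives, at most 15 each, and 13 of the other members turned sign under at least 1. The replicate numbers were not taken to pair the samples, because the labels do not say that they mark a shared culture. Deviations of the LPS and control arrays with the same replicate number correlated at 0.44, -0.04 and 0.23. LPS 2 correlated best with control 1 (0.14) and LPS 3 with control 2 (0.32). All pairs within an array set correlated positively and all pairs across sets negatively. These correlations therefore cannot show whether the numbers pair cultures.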
